A study of Mus musculus with 5 samples.

Results

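The 10 genes described here encode chemokine ligands, the secreted proteins that direct the movement of leukocytes. They were Ccl2, Ccl3, Ccl4, Ccl5, Ccl6, Xcl1, Cxcl2, Cxcl9, Cxcl10 and Cxcl16, taken by name from the 18767 genes of a single-cell count table, and all 10 were in it. The material was thyroid tissue of NOD.WT mice of both sexes, whose 4 weeks of treatment began at 4 to 6 weeks of age, and from which living CD45+ cells, the immune cells, were taken by flow sorting. NOD is a strain prone to autoimmunity. The immune checkpoint inhibitor (ICI) group received anti-PD-1 (clone RPM1-14) together with anti-CTLA-4 (clone 9D9), and the isotype group received control antibodies (clones 2A3 and MPC11). Injections were given in the abdomen, at 10 mg/kg per dose for the checkpoint antibodies. Cells of 16 ICI mice were pooled into 4 libraries and cells of 10 isotype mice into 1 library. How many mice entered each library is not given, so a library is a pool and not an animal. No untreated mice and no single-antibody group are part of the comparison.

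Chemokines act through G protein-coupled receptors on the cells they attract, and most are made when a cell is stimulated. Ccl2 draws monocytes through Ccr2, and Cxcl2 draws neutrophils through Cxcr2. Ccl3, Ccl4 and Ccl5 attract effector T cells and myeloid cells, while Ccl6 is a rodent chemokine. Xcl1 is the ligand of Xcr1, the receptor of cross-presenting dendritic cells. Cxcl9 and Cxcl10 are induced by interferon-gamma and bind Cxcr3 on T and natural killer cells. Cxcl16 is made as a membrane protein on myeloid cells and binds Cxcr6.

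In GRCm38, Ccl2, Ccl3, Ccl4, Ccl5, Ccl6 and Cxcl16 lie on chromosome 11, Cxcl2, Cxcl9 and Cxcl10 on chromosome 5 and Xcl1 on chromosome 1, and all are protein-coding. Promoter sequences are shown for the 3 ligands on chromosome 5, since each had a different order of the libraries in macrophage-like cells. They are RefSeq sequences of the mouse build GRCm38.p6, 250 bases ending just before the gene's RefSeq start, written 5′ to 3′ on the gene's strand. The GENCODE annotation starts Cxcl2 upstream of that, at 90903871, inside the window. RefSeq promoter entries were matched for 6 of the 10 genes. Capitals mark matches, on either strand, to an NF-kappaB site (GGG, any 3 bases, then TTCC) or to the core of an interferon-stimulated response element (GAAA, any 2 bases, then GAAA).
Cxcl2, chr5:90903649-90903898, plus strand: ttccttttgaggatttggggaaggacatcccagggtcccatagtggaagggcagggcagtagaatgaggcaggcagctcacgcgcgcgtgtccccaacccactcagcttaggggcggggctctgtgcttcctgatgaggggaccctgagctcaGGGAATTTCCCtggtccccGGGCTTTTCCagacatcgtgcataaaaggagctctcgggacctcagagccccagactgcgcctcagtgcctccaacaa
Cxcl9, chr5:92328080-92328329, minus strand: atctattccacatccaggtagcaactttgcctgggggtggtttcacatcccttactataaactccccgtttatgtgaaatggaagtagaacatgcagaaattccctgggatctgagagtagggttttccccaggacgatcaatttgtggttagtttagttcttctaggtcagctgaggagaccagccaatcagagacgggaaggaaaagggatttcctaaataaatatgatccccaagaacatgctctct
Cxcl10, chr5:92348890-92349139, minus strand: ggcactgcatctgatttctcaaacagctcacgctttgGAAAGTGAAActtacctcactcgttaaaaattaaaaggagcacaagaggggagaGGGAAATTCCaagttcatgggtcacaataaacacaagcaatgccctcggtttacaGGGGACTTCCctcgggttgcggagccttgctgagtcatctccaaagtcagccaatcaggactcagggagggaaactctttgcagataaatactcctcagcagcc
The Cxcl2 window held 2 separate runs in capitals, the first matching on both strands with overlap. The Cxcl10 window held 2 NF-kappaB matches and 1 interferon-element match, and the Cxcl9 window matched neither motif. A gamma-activated site (TTCNNNGAA) was searched as well and matched none of the 6 promoters. Of 32851 promoters of the same length, 4.65% held the NF-kappaB motif, 2.98% the interferon element and 7.02% the gamma-activated site. The matches describe letters and were not tested for binding.

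Cell numbers were 1523, 1219, 1163 and 5018 in ICI 1 to 4, against 1352 in the isotype library. Depth was 4430929, 3858251, 4380351 and 32296759 UMIs (unique molecular identifiers, each marking 1 captured transcript) in the ICI libraries and 8130081 UMIs in the isotype library. Median UMIs per cell were 1753 to 4321 in the ICI libraries and 3621.5 in the isotype library. ICI 2 and ICI 3 shared 140 cell barcodes, 109 of them in the same cluster, whereas every other pair of libraries shared at most 12 and none in the same cluster. Whether these 2 libraries hold some of the same cells was not tested. The labels title ICI 1 to 3 as ICI_CD45pos_m1, ICI_CD45pos_m1a and ICI_CD45pos_m1b, ICI 4 as ICI_nov21 and isotype as ISO. The barcodes of ICI 4 fell into 2 sets of 2419 and 2599 cells, which held 6.39 and 30.97 CPM of Ccl2, 5.38 and 16.97 CPM of Ccl6 and 3.61 and 10.7 CPM of Cxcl9. ICI 4 stood apart from the other ICI libraries: macrophage-like cells made up 0.897% of its cells, against 6.83% to 14.8% in ICI 1 to 3, with 9.54% in the isotype library. The summed level of 7 fibroblast markers was 0 CPM (a gene's UMIs scaled to the same total in every library) in ICI 1 to 3 and 52.8 CPM in ICI 4, against 299 CPM in isotype. Red cell transcripts summed to 0 to 6.09 CPM in ICI 1 to 3 and 1885 CPM in ICI 4, against 941 CPM in isotype. Where a value rests mainly on ICI 4 or on the pair with shared barcodes, the libraries concerned are named beside it.

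Macrophage-like cells held the largest mean share of UMIs for 8 of the 10 ligands. The authors' 17 clusters were kept and named by markers, and a level is the CPM of UMIs summed per library and cluster. Cluster 7, led by C1qa, C1qb, C1qc and Lyz2, was macrophage-like. It held, as the mean over 5 libraries, 96.0% of Ccl2 UMIs, 94.9% of Ccl6, 92.3% of Cxcl2 and 83.5% of Ccl3. Its shares were smaller for Cxcl16 (77.2%), Ccl4 (72.3%), Cxcl9 (68.8%) and Cxcl10 (57.0%). The lymphoid ligands lay elsewhere. Natural killer-like cluster 8 held 57.7% of Xcl1 UMIs and 29.7% of Ccl5, and effector T-like cluster 1 held 53.7% of Ccl5 and 17.8% of Xcl1. These clusters were made from the same cells and genes, and Cxcl2, Ccl6, Xcl1 and Ccl5 were among their leading genes, so the distribution is a description.

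**Figure D1:**
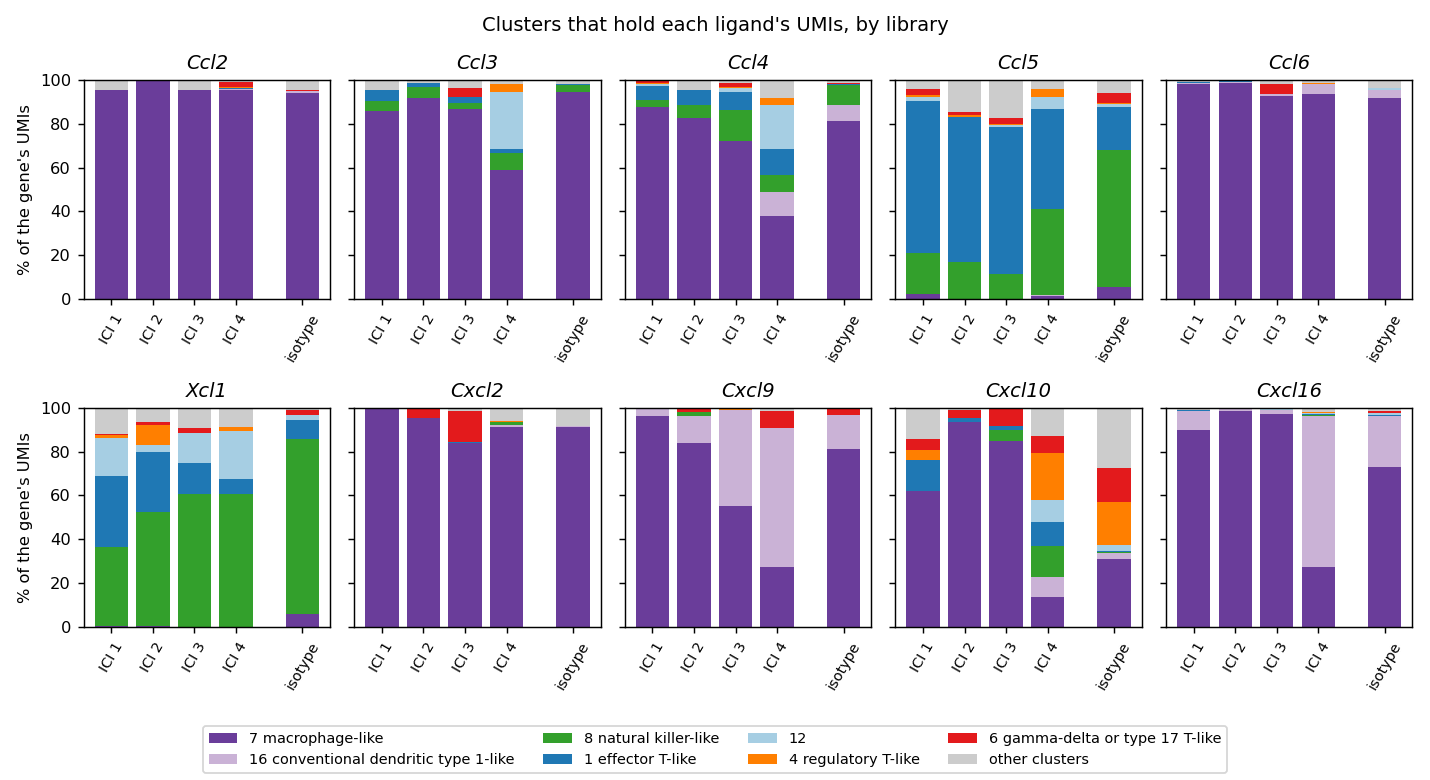
Share of each ligand's UMIs (y axis, percent) that lay in the named clusters, one bar per library, with the 4 ICI libraries left of the isotype library. Cluster 7 fills most of the bars of Ccl2, Ccl6 and Cxcl2, while Cxcl16 and Cxcl9 of ICI 4 lay mainly in dendritic-like cluster 16.

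The conventional dendritic type 1-like cluster 16, marked by Xcr1, Wdfy4 and Naaa, held a sizeable share of 2 ligands. It held 20.6% of Cxcl16 UMIs and 27.7% of Cxcl9 UMIs as the mean over libraries. In ICI 4 it held 68.8% of Cxcl16 and 63.1% of Cxcl9, against 23.1% and 15.3% in isotype. Cluster 16 had 43 cells in ICI 4 and 28 in isotype, and 4 to 12 cells in ICI 1 to 3. Cxcl10 was spread over more clusters in ICI 4 and isotype, where cluster 7 held only 13.8% and 30.9% of its UMIs. In ICI 1 to 3 cluster 7 held 61.9%, 93.6% and 84.7%. Regulatory T-like cluster 4 held 4.76%, 0%, 0% and 21.5% of Cxcl10 UMIs in ICI 1 to 4, and 19.5% in isotype. Of the 29 isotype UMIs there, 86.2% lay in 1 cell.

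Order by level was clear only for some ligands. Ccl6 averaged 603 ± 166 CPM in cluster 7 (SD, n = 5 libraries), and the next cluster, 16, averaged 74.7 ± 76.3 CPM (n = 2) with no overlap of the library ranges. Xcl1 averaged 1707 ± 837 CPM in cluster 8, and effector T-like cluster 1 followed at 196 ± 95.4 CPM, again without overlap (n = 5 each). Cxcl16 averaged 628 ± 381 CPM in cluster 7 and 376 ± 116 CPM in cluster 16, which overlapped each other, and the third cluster lay below both without overlap. For Ccl2, Ccl3, Ccl4, Ccl5, Cxcl2, Cxcl9 and Cxcl10 the libraries of the first and second clusters overlapped. Ccl5, for example, averaged 6468 ± 2302 CPM in cluster 8 and 5426 ± 2055 CPM in cluster 1 (SD, n = 5 each). Cxcl9 was highest in cluster 16 (96.5 ± 103 CPM, n = 2) and then in cluster 7 (76.7 ± 35.8 CPM, n = 5), an order that turned round when sums of at least 10 cells were admitted in place of 20.

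**Figure D2:**
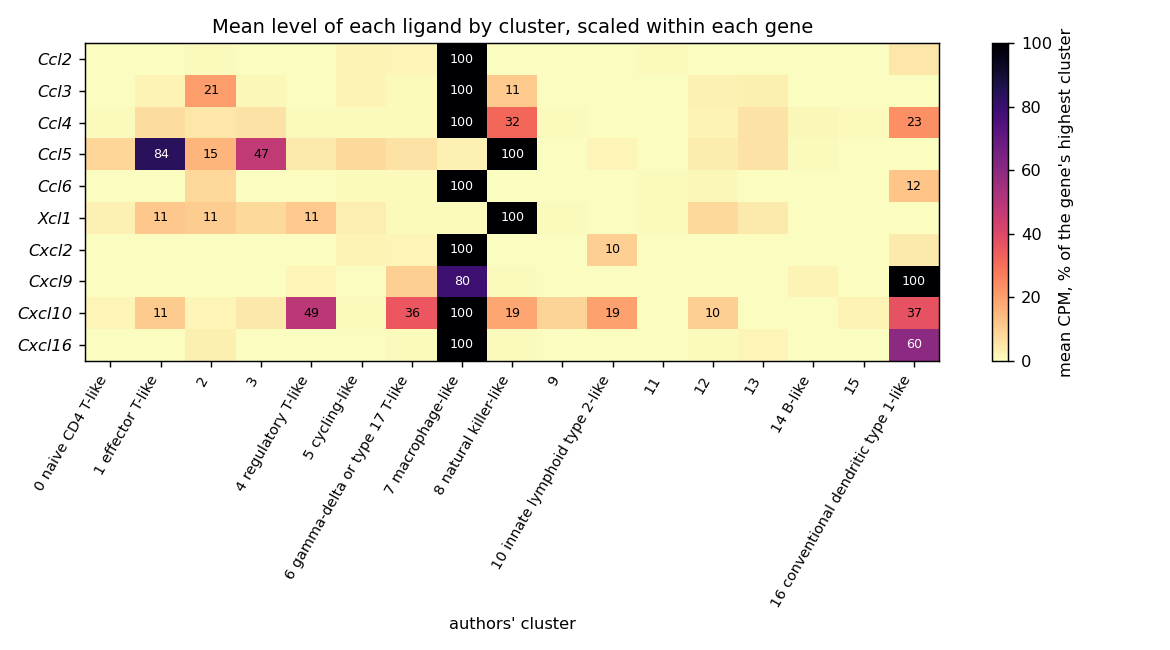
Mean level of each ligand (rows) in the 17 clusters (columns), as percent of the mean CPM in that gene's highest cluster, with values of 10 or more printed. The rows of 7 ligands have their maximum in macrophage-like cluster 7, those of Ccl5 and Xcl1 in natural killer-like cluster 8, and that of Cxcl9 in cluster 16.

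Single cells carried much of several ligands, which limits what a library's level says about its cells. In ICI 1, 1 cell held 96.1% of Cxcl9 UMIs and 1 cell held 77.3% of Ccl2 UMIs. In the isotype library 1 cell held 74.6% of Cxcl9 UMIs, 44 of 59. Ccl5 and Cxcl16 were spread over more cells: the highest cell held 1.57% to 9.37% of Ccl5 UMIs in ICI libraries and 3.35% in isotype. For Cxcl16 it held 4.14% to 5.72% in ICI libraries and 2.89% in isotype.

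The first question was which ligands differed over all CD45+ cells. Ccl2 and Cxcl2 were lower in every ICI library than in isotype, and so was Ccl6, but none of the 10 ligands passed the test. The test was edgeR's quasi-likelihood test on summed counts with Benjamini-Hochberg adjustment over 12659 genes, of which 0% were called at an adjusted p of 0.05. Without adjustment, 2 ligands had p under 0.05, against 4.08% of all genes tested. Since isotype is 1 library, its spread was assumed to be that of the ICI libraries, and p-values measure only the spread between pools.

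Ccl2 had 4.97, 7.26, 4.79 and 18.9 CPM in ICI 1 to 4, against 228 CPM in isotype. All 4 ICI libraries lay far below the isotype library, and ICI 4 was the highest of them. The fitted log2 ratio of ICI over isotype was -4.66 (SE 0.74, edgeR adjusted p = 0.779). DESeq2 called it (adjusted p = 4.99e-04), as it did 0.3% of the genes tested. Without ICI 4 edgeR called it too (log2 -5.46, SE 0.26, edgeR adjusted p = 0.0264), where 1.68% of genes were called.

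Cxcl2 had 18.1, 80.1, 140 and 43.4 CPM in ICI 1 to 4, against 543 CPM in isotype. The groups did not overlap, and the ICI libraries themselves spread over a wide range. Its log2 ratio was -3.04 (SE 0.89, edgeR adjusted p = 0.817). Ccl6 had 89.6, 75.9, 77.2 and 11.3 CPM in ICI 1 to 4, against 161 CPM in isotype. ICI 4 was the lowest, and its log2 ratio over all ICI libraries was -1.48 (SE 0.89, edgeR adjusted p = 0.817). These 3 ligands of 10 lay below isotype in every ICI library, and 19.1% of all tested genes did so. None of the 10 lay above isotype in every ICI library, where 27.3% of tested genes did.

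**Figure D3:**
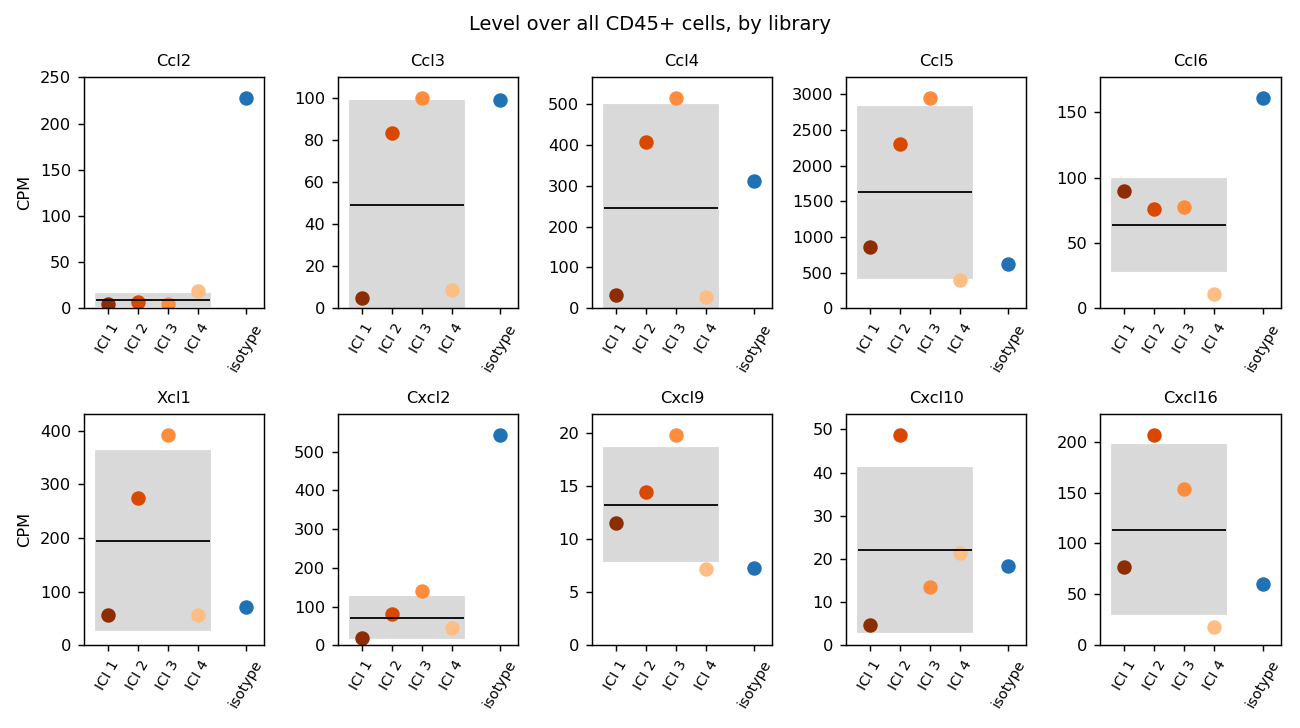
CPM of each ligand over all CD45+ cells (y axis, linear), with one point per library, the 4 ICI libraries left of the isotype library. Line and grey band are the ICI mean and 1 SD (n = 4), and Ccl2, Ccl6 and Cxcl2 are the 3 panels in which every ICI point lies below isotype.

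The remaining 7 ligands overlapped the isotype level. Ccl5 had 860, 2301, 2950 and 398 CPM in ICI 1 to 4, against 620 CPM in isotype, and Xcl1 had 56.0, 275, 392 and 57.3 CPM, against 70.5 CPM. ICI 2 and ICI 3, the libraries with shared barcodes, were the high ones for both. Ccl4 had 32.7, 407, 515 and 26.8 CPM in ICI 1 to 4, against 312 CPM in isotype, and Ccl3 had 4.74, 83.5, 100 and 8.76 CPM, against 99.4 CPM. The same 2 libraries again stood above ICI 1 and ICI 4. Cxcl16 had 76.5, 207, 154 and 17.9 CPM in ICI 1 to 4, against 59.7 CPM in isotype. Cxcl9 and Cxcl10 stayed below 50 CPM in every library, with 7.21 to 19.9 CPM of Cxcl9 in ICI libraries against 7.26 CPM in isotype. For Cxcl10 the ICI range was 4.74 to 48.7 CPM and isotype had 18.3 CPM. The edgeR adjusted p-values of these 7 ligands ran from 0.817 to 0.967.

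Levels over all cells move with the mix of cells, so they were also computed at the isotype library's cluster shares. Cxcl9 then had 9.13, 11.5, 27.5 and 17.8 CPM in ICI 1 to 4, against 3.64 CPM in isotype. Cxcl16 had 61.0, 112, 157 and 40.2 CPM, against 29.0 CPM in isotype. Both ligands were now above isotype in 4 of 4 ICI libraries. Ccl2 stayed below in 4 of 4, with 3.01 to 112 CPM in ICI libraries against 115 CPM in isotype, and so did Cxcl2, with 14.4 to 269 CPM against 287 CPM. Ccl6 was then below in 3 of 4, with 71.8, 40.2, 88.6 and 65.2 CPM in ICI 1 to 4, against 79.9 CPM in isotype. For Ccl2 and Cxcl2 the gap between ICI 4 and isotype was then small. Every cluster with any cell entered here, without the minimum of 20 cells, so few UMIs weigh on some values. In ICI 3, cluster 2 had 229 CPM of Ccl6 from 5 UMIs in 21 cells. Cluster 11 of ICI 3 had 353 CPM of Cxcl16 from 1 UMI in its 1 cell. Its cluster 16 had 1005 CPM of Cxcl9 in 4 cells. These are values with no test.

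Within macrophage-like cells, Ccl2 and Cxcl2 set ICI 1 to 3 apart from both ICI 4 and isotype. The titles of ICI 1 to 3 share a form that ICI 4 and isotype lack, so this split cannot be told apart from library set. Ccl2 had 39.6, 39.3, 28.4 and 1159 CPM in cluster 7 of ICI 1 to 4, against 1095 CPM in isotype. ICI 4 was level with isotype, and ICI 1 to 3 were low. Cxcl2 had 151, 412, 731 and 2538 CPM in ICI 1 to 4, against 2535 CPM in isotype. ICI 4 was again level with isotype and ICI 1 to 3 were lower, though among those 3 ICI 3 was the highest for Cxcl2 and the lowest for Ccl2. Neither passed the edgeR test (Ccl2 log2 -1.76, SE 1.85, adjusted p = 0.771; Cxcl2 log2 -1.38, SE 1.20, adjusted p = 0.728). Without ICI 4 the Ccl2 ratio was -4.95 (SE 0.30, edgeR adjusted p = 0.00247), a fit that called 7.35% of genes, whereas ICI 4 set against isotype alone gave 0.13.

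The share of macrophage-like cells with a Ccl2 UMI was likewise low in ICI 1 to 3 and high in ICI 4 and isotype. A Ccl2 UMI was seen in 2.88%, 3.87%, 4.32% and 48.9% of cluster 7 cells in ICI 1 to 4 (exact 95% intervals 0.599% to 8.20%, 1.57% to 7.81%, 1.75% to 8.70% and 33.7% to 64.2%). In isotype the share was 47.3% (38.4% to 56.3%). Median depth in cluster 7 was 3403, 3403, 3472 and 8726 UMIs per cell in ICI 1 to 4 and 9932 in isotype, so the low libraries were also the shallow ones. After thinning each cell to 1000 UMIs the shares were 3.09%, 2.55%, 3.33% and 35.6% in ICI 1 to 4 and 25.6% in isotype. For Cxcl2 the thinned shares were 1.03%, 10.2%, 8.33% and 33.3% in ICI 1 to 4 and 51.9% in isotype. The Cxcl2 share of ICI 4 thus lay below that of isotype, although the CPM levels of these 2 libraries were alike. The gap of ICI 1 to 3 to isotype thus remained at equal depth. In naive CD4 T-like cluster 0, which should lack Ccl2, 0% to 0.339% of cells in ICI libraries and 0.840% in isotype had a UMI. Cluster 0 median depths were 2687 to 3751 UMIs in ICI libraries and 3506 in isotype. Intervals cover counting error only.

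Markers of other cells in cluster 7 also differed between libraries. The 10 macrophage markers summed to 22813, 28679, 23864 and 12245 CPM in ICI 1 to 4, against 14726 CPM in isotype, so that ICI 4 and isotype were the 2 lowest. The 10 T cell markers summed to 1587, 143, 114 and 1984 CPM in ICI 1 to 4, against 3803 CPM in isotype. Cells with both T and myeloid transcripts made up 42.3%, 12.2%, 16.7% and 55.6% of cluster 7 in ICI 1 to 4, against 73.6% in isotype. They had at least 1 UMI of Cd3d, Cd3e, Cd3g or Trac and at least 2 of Lyz2, C1qa, C1qb, C1qc, Csf1r, Fcer1g and Tyrobp. These cells were found in unthinned counts, so their share moves with depth, which was greatest in ICI 4 and isotype. With those cells removed, the log2 ratio was -2.84 for Ccl2 and -1.05 for Cxcl2 (edgeR adjusted p = 0.836 and 0.906). Neutrophil markers, of which Cxcr2 is the receptor for Cxcl2, summed to 2204, 37.9, 842 and 45.6 CPM in ICI 1 to 4, against 128 CPM in isotype. The fibroblast markers were at 0 in cluster 7 of all 4 ICI libraries and at 54.1 CPM in isotype. Red cell markers were at 0 to 13.2 CPM in ICI 1 to 3 and 3667 CPM in ICI 4, against 16.4 CPM in isotype. The 6 mature dendritic markers summed to 1107, 129, 121 and 2635 CPM in ICI 1 to 4, against 650 CPM in isotype. The 3 parathyroid markers (Pth, Chga and Gcm2) summed to 0, 132, 49.7 and 71.4 CPM in ICI 1 to 4, against 3264 CPM in isotype, and over all cells to 0.677 to 26.2 CPM in ICI libraries, against 817 CPM in isotype. Their part in the Ccl2 and Cxcl2 levels was not tested beyond these values.

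Cxcl9 and Cxcl16 were higher in macrophage-like cells of every ICI library, yet neither passed the test. Cxcl16 had 575, 1099, 930 and 314 CPM in cluster 7 of ICI 1 to 4, against 223 CPM in isotype. ICI 2 and ICI 3 were the highest and ICI 4 the nearest to isotype. Its log2 ratio was 1.71 (SE 0.73, edgeR adjusted p = 0.590), and without ICI 4 it was 1.95 (SE 0.46, edgeR adjusted p = 0.0492). At 1000 UMIs per cell a Cxcl16 UMI was seen in 43.3%, 58.6%, 56.7% and 31.1% of cluster 7 cells in ICI 1 to 4, and in 20.9% in isotype. Before thinning the shares were 63.5% to 76.8% in ICI libraries and 71.3% in isotype, so the order of the groups appeared only at equal depth. With the dual-lineage cells removed the ratio was 0.51 (edgeR adjusted p = 0.897).

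Cxcl9 had 92.4, 65.9, 68.2 and 127 CPM in cluster 7 of ICI 1 to 4, against 30.2 CPM in isotype. No ICI library overlapped isotype. The log2 ratio was 1.54 (SE 0.50, edgeR adjusted p = 0.540). Few cells carried it: 1 to 11 cells per ICI library and 2 in isotype, where 91.7% of its 48 UMIs lay in 1 cell. Removing dual-lineage cells turned the ratio to -2.13 (edgeR adjusted p = 0.836). Cxcl10 had 24.5, 247, 71.0 and 189 CPM in ICI 1 to 4, against 29.0 CPM in isotype, with ICI 1 below isotype and the other ICI libraries above. Its log2 ratio was 2.20 (SE 1.22, edgeR adjusted p = 0.626). In cluster 7, Cxcl9 and Cxcl16 were the 2 of 10 ligands above isotype in every ICI library, against 19.6% of tested genes, and Ccl6 and Xcl1 the 2 below, against 23.6%. The edgeR fit called 0% of the genes in this cluster, and the Xcl1 level there was 21.4 CPM in isotype and at most 8.41 CPM in ICI libraries.

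Ccl3, Ccl4 and Ccl6 overlapped isotype or nearly so in macrophage-like cells. Ccl4 had 239, 1824, 2314 and 649 CPM in cluster 7 of ICI 1 to 4, against 1299 CPM in isotype, so that isotype lay within the ICI range. Ccl3 had 33.9, 415, 540 and 331 CPM, against 480 CPM in isotype. ICI 1 was the lowest for both. Ccl6 had 735, 405, 444 and 677 CPM, against 755 CPM in isotype, with all ICI libraries below by a margin that was small for ICI 1. Their log2 ratios were -0.035, -0.52 and -0.42, each with an edgeR adjusted p of 0.761 or more.

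**Figure D4:**
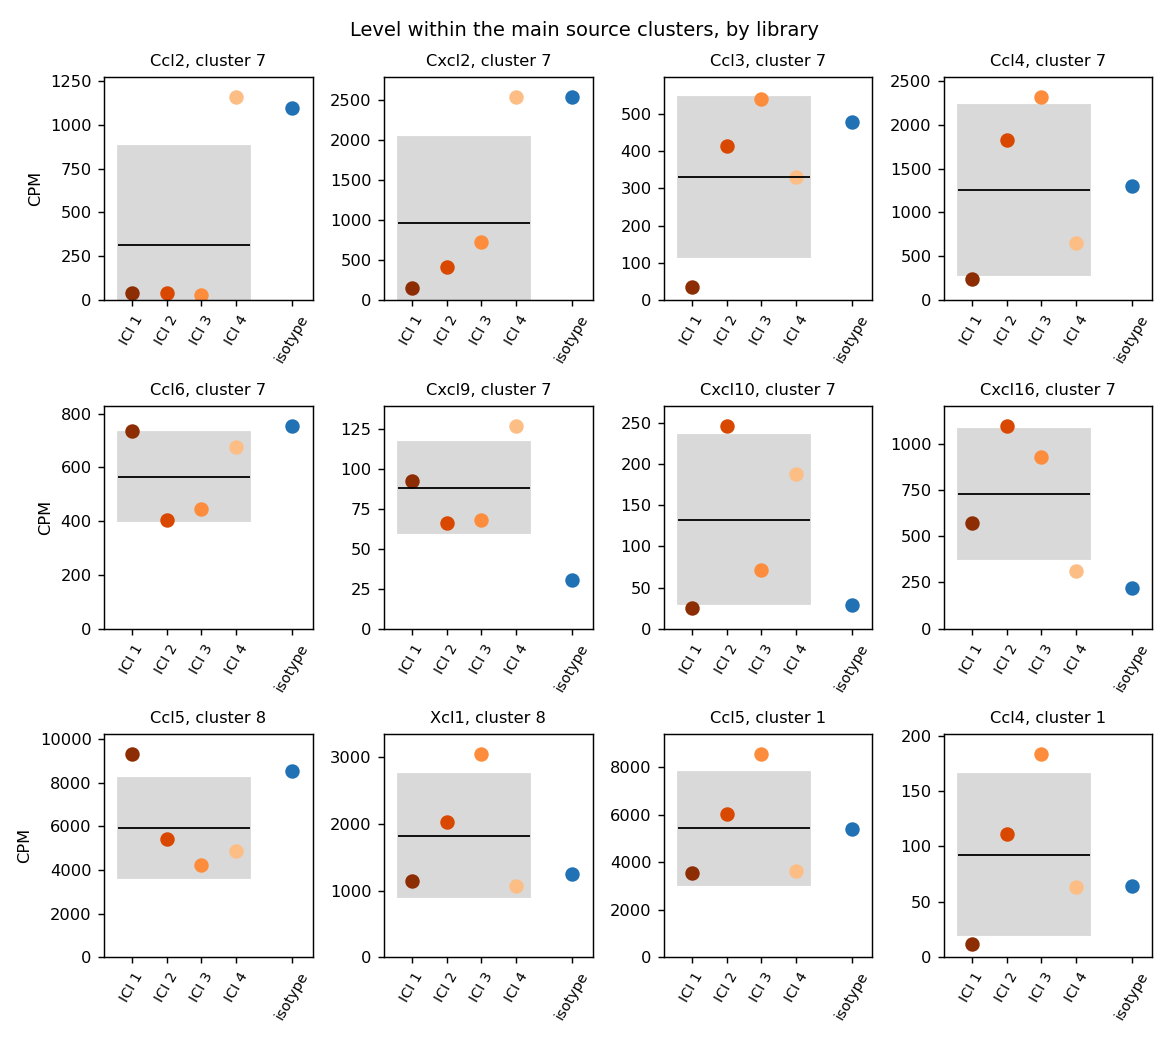
CPM (y axis, linear, scaled per panel) of ligands in the clusters that held most of their UMIs, with one point per library, ICI left of isotype, and the ICI mean and 1 SD as line and grey band (n = 4). Ccl2 and Cxcl2 in cluster 7 show ICI 4 beside isotype at 1159 and 1095 CPM for Ccl2, while every ICI point of Cxcl9 and Cxcl16 lies above isotype.

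Ccl3 and Ccl4 were seen in the same macrophage-like cells. At 1000 UMIs per cell, a Ccl4 UMI was present in 66.7%, 78.3%, 80% and 66.7% of the cluster 7 cells with Ccl3 in ICI 1 to 4, and in 63.9% in isotype. Among cells without Ccl3 it was present in 7.45%, 18.7%, 15% and 16.7% in ICI 1 to 4, and in 16.1% in isotype. The direction was the same in all 5 libraries, though ICI 1 had 3 and ICI 4 had 9 cells with Ccl3. The 2 genes lie side by side on chromosome 11 (GRCm38), Ccl3 at 83647844 to 83649355 on the minus strand and Ccl4 at 83662584 to 83664683 on the plus strand. The pattern was not particular to them. Ccl4 was present in 93.75%, 80% and 53.3% of cells with Cxcl2 in ICI 2 to 4, and in 43.3% in isotype. Without Cxcl2 the shares were 19.9%, 20.9% and 13.3% in ICI 2 to 4, and 14.5% in isotype. ICI 1 had 1 cell with Cxcl2, and it lacked Ccl4. Cxcl2 was likewise more frequent with Ccl2 than without it in ICI 4 (56.2% against 20.7%) and in isotype (78.8% against 42.7%), and ICI 1 to 3 had only 3 or 4 Ccl2 cells each. Cxcl16 went the other way with Ccl6: in isotype it was seen in 12.8% of cells with Ccl6 and 25.6% of cells without, and in ICI 3 in 15.8% and 64.4%. ICI 1 and ICI 2 had that direction too, and ICI 4 did not (33.3% with Ccl6 and 29.6% without).

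In natural killer-like cells the Ccl5 and Xcl1 levels of the ICI libraries overlapped the isotype level. Ccl5 had 9305, 5408, 4220 and 4854 CPM in cluster 8 of ICI 1 to 4, against 8555 CPM in isotype, with only ICI 1 above isotype. Xcl1 had 1150, 2026, 3040 and 1071 CPM in ICI 1 to 4, against 1248 CPM in isotype. ICI 2 and ICI 3 were above isotype and the other 2 below. The edgeR log2 ratios were -0.78 (SE 0.57) for Ccl5 and 0.33 (SE 0.67) for Xcl1, both with an adjusted p of 0.9999. Of the 5 ligands tested in cluster 8, Ccl3 alone was below isotype in every ICI library (12.9, 55.1, 35.0 and 21.1 CPM against 73.6 CPM; edgeR adjusted p = 0.9999), as were 12.3% of tested genes, and the fit called 0%. None lay above in every ICI library, where 24% of tested genes did.

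In effector T-like cluster 1, led by Gzmk, Ccl5 and Ifng, Ccl5 had 3545, 6015, 8545 and 3614 CPM in ICI 1 to 4, against 5409 CPM in isotype. Isotype lay in the middle of the ICI libraries (edgeR log2 -0.11, SE 0.66, adjusted p = 0.984). Xcl1 had 109, 297, 234 and 80.5 CPM in ICI 1 to 4, against 258 CPM in isotype, and Ccl4 had 12.1, 112, 183 and 63.8 CPM, against 64.4 CPM. None of the 5 ligands tested there was called, where 0.0107% of genes were, and 1 of the 5, Ccl3, lay below isotype in every ICI library, as did 19% of tested genes. None lay above in every ICI library, where 37% of tested genes did. The share of such cells was higher in every ICI library, a value with no test: cluster 1 made up 25.7%, 25.7%, 23.2% and 6.44% of the cells in ICI 1 to 4, against 3.33% in isotype. Thus cluster 1 held 69.4%, 66.2%, 67.2% and 45.4% of Ccl5 UMIs in ICI 1 to 4, against 20% in isotype, where cluster 8 held 62.3%. Isotype had 45 cells in cluster 1.

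Ccl5 lay with Cd8 rather than Cd4 transcripts inside cluster 1. Cells with a Cd8a or Cd8b1 UMI and no Cd4 UMI had 7323, 11942, 15940 and 8019 CPM of Ccl5 in ICI 1 to 4, and 11712 CPM in isotype. Cells with a Cd4 UMI and neither Cd8 gene had 3896, 2647, 2548 and 872 CPM in ICI 1 to 4, and 604 CPM in isotype. The Cd8 cells were higher in 5 of 5 libraries, with a mean log2 difference (pseudocount 10 CPM) of 2.63 ± 1.24 (SD, n = 5; exact two-sided sign-flip permutation p = 0.0625, the smallest that 5 libraries can give). With ICI 2 and ICI 3 summed to 1 library it was 2.70 ± 1.41 (SD, n = 4; exact permutation p = 0.125, the smallest that 4 can give). Ccl4 was higher in Cd8 cells in 4 of 5 libraries (33.2, 291, 414 and 147 CPM against 15.5, 4.63, 2.22 and 10.7 CPM in the Cd4 cells of ICI 1 to 4). The isotype library, with 15 Cd8 cells and 10 Cd4 cells, had 3 and 2 Ccl4 UMIs. Xcl1 differed less, with a mean log2 difference of 0.91 ± 0.77 and 4 of 5 libraries higher in Cd8 cells (exact permutation p = 0.125). The split used Cd8a, Cd8b1 and Cd4 only, but the authors' clustering used all genes of these cells.

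**Figure D5:**
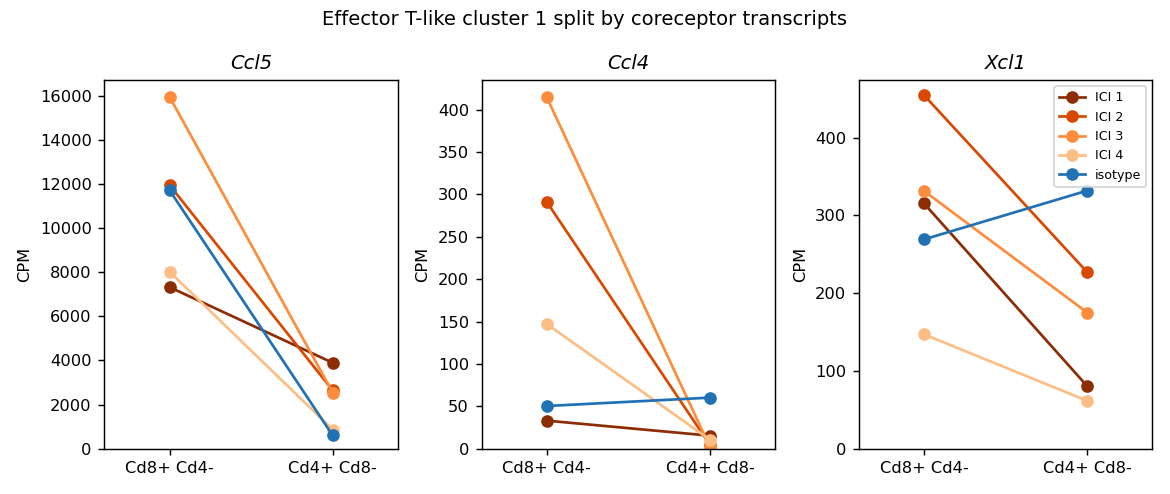
CPM (y axis, linear) of Ccl5, Ccl4 and Xcl1 in cluster 1 cells with Cd8 transcripts only (left) and Cd4 transcripts only (right), with one line per library. All 5 lines of Ccl5 run downward to the right, and ICI 3 has the widest gap at 15940 and 2548 CPM.

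Ccl5 was also found outside its main clusters in ICI 2 and ICI 3. In naive CD4 T-like cluster 0 it had 25.5, 1023, 1573 and 2.58 CPM in ICI 1 to 4, against 74.9 CPM in isotype. The unnamed cluster 3, led by Fam241a, Dapl1 and Itgae, had 40.6, 6218, 8636 and 31.05 CPM, against 281 CPM in isotype. The pair with shared barcodes was far above isotype in both clusters, while ICI 1 and ICI 4 were below it. The share of cluster 0 cells with a Ccl5 UMI was 6.35%, 38.3%, 34.3% and 1.02% in ICI 1 to 4, against 2.52% in isotype, and in B-like cluster 14, which should lack Ccl5, it was 8.20% in ICI 1 and 4.11% in ICI 4, against 0 of 16 isotype cells. ICI 2 and ICI 3 had 5 B-like cells each. In unnamed cluster 12, led by Nrgn and Tnfrsf9, Xcl1 had 201 CPM in ICI 1 and 150 CPM in ICI 4, against 29.4 CPM in isotype. Its log2 ratio over these 2 ICI libraries with at least 20 cells was 2.57 (SE 0.69, edgeR adjusted p = 0.0873), in a fit that called 0.433% of genes. It was called with no filter (edgeR adjusted p = 0.0261) and with dual-lineage cells removed (edgeR adjusted p = 0.0257). The shares of all genes called under those settings are not given here. Parathyroid markers in this cluster summed to at most 4.78 CPM in ICI libraries, against 2442 CPM in isotype, and macrophage markers to at most 35.0 CPM, against 556 CPM, and their part was not tested. The 8 and 14 cluster 12 cells of ICI 2 and ICI 3, which were not fitted, had 1266 and 2743 CPM.

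Over the 12 clusters that could be fitted, 52 ligand-by-cluster tests were made and 1 passed. It was Cxcl2 in cycling-like cluster 5, with 0 CPM in ICI 1, 0 CPM in ICI 3 and 0.209 CPM in ICI 4, against 109 CPM in isotype. ICI 2, which had under 20 cells in this cluster, was not fitted. The fit gave an edgeR adjusted p of 0.0475 and called 0.0316% of genes, and without ICI 1 the adjusted p was 0.9998. Of the 213 isotype UMIs, 97.7% lay in 1 of 153 cells, and macrophage markers in that cluster summed to 441 CPM in isotype, against 9.63 to 25.7 CPM in the ICI libraries. Thyroid epithelial markers summed to 413 CPM in isotype, against 5.14 to 20.4 CPM in those ICI libraries. With the highest cell left out, or with cells of both T and myeloid transcripts removed, 5 isotype UMIs remained and Cxcl2 no longer entered the test. Unadjusted, 14 of the 52 tests had p under 0.05, while the share of all genes with such a p was 0.927% to 8.51% across the 12 fits. This comparison is no test, since some ligands passed the filter only through the group where they were high. In cluster 5, Ccl6 had 38 UMIs in isotype and 0 in ICI libraries, and Ccl2 had 75 and 1. In cluster 2, Xcl1 had 0 UMIs in isotype and 22 in ICI libraries. The edgeR fits of clusters 2, 4 and 11 called 0.0341%, 0.144% and 0.14% of genes, with no ligand among them, and those of clusters 0, 3, 6 and 10 called 0%. Among the unadjusted were Ccl5 in cluster 4 (103, 541, 488 and 199 CPM in ICI 1 to 4, against 14.4 CPM in isotype; edgeR adjusted p = 0.675) and Cxcl10 in the same regulatory T-like cluster. Cxcl10 had 3.11, 0, 0 and 60.9 CPM in ICI 1 to 4, against 209 CPM in isotype, where 86.2% of its 29 UMIs lay in 1 cell (edgeR adjusted p = 0.831). Without ICI 4 more ligands were called, and not in 1 direction. Cxcl2 had a log2 ratio of 7.85 in cluster 6, from 0 isotype UMIs, and -5.44 in cluster 10. Ccl5 and Cxcl10 were lower than isotype in both. In cluster 5, Xcl1 (9.49) and Ccl5 (5.54) were higher, and Cxcl2 (-9.63) and Ccl2 (-8.13) were lower. Leaving out ICI 4 gave 15 calls in place of 1. They comprised Ccl2 and Cxcl16 in cluster 7 (7.35% of genes called), 4 ligands in cluster 5 (2.73%), and Ccl5, Cxcl2 and Cxcl10 in cluster 6 (17.3%) and in cluster 10 (8.89%). The last 3 were Ccl5 and Xcl1 in cluster 2 (1.89%) and Cxcl10 in cluster 4 (1.74%).

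Whether the ICI difference itself varied between source clusters was tested for the 3 pairs of clusters 1, 7 and 8, with the library as a block. None of the 25 ligand tests passed, and the fits called 0.0099%, 0.135% and 0% of genes for clusters 1 against 7, 1 against 8 and 7 against 8. The nearest was Ccl4, whose ICI difference was 1.91 higher on the log2 scale in effector T-like than in natural killer-like cells (SE 0.63, edgeR adjusted p = 0.561). Without ICI 3 this was 2.43 (edgeR adjusted p = 0.0114), in a fit whose share of all genes called is not given here.

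No other ligand of the family passed the test over all cells. Of 26 further ligand genes listed, 22 were in the table and 18 passed the filter, with 0 called in either direction by edgeR. Of the 18, 12 lay below isotype in every ICI library and 1 above, where 19.1% of all tested genes lay below and 27.3% above. The filter keeps a gene that reaches the minimum in any 1 library. A scarce gene high in isotype alone thus enters and is bound to lie below isotype in every ICI library. The count of 12 is therefore no test of these ligands. Fibroblast markers, at 0 in ICI 1 to 3 and 52.8 CPM in ICI 4 against 299 CPM in isotype, differed the same way, and their part in these levels was not tested. The median log2 ratio of the 18 ligands, subject to the same filter, was -2.58, against 0.02 for all genes and -0.14 for the 10 ligands described here. Of the 4 with the highest mean level, Cxcl1, which shares Cxcr2 with Cxcl2, had 0, 10.6, 28.8 and 14.1 CPM in ICI 1 to 4, against 154 CPM in isotype. Ccl1, a ligand of Ccr8, had 10.4, 14.8, 70.5 and 14.7 CPM, against 62.5 CPM in isotype. Ccl12, a further Ccr2 ligand of mice, had 19.4, 54.4, 61.6 and 1.61 CPM, against 9.59 CPM, so only ICI 4 lay below isotype. Cxcl14 had 16.9, 60.6, 47.3 and 1.55 CPM, against 31.98 CPM in isotype. In cluster 7, Cxcl1 repeated the order of Cxcl2 (0, 57.5, 177 and 820 CPM in ICI 1 to 4, against 723 CPM in isotype), and Ccl7, another Ccr2 ligand, was at 0 in ICI 1 to 3 and at 675 CPM in ICI 4, against 628 CPM in isotype.

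Receptors for these ligands showed no call either, with 0 of 17 tested over all cells and a median log2 ratio of 1.16. Cxcr3, the receptor of Cxcl9 and Cxcl10, had 167, 375, 366 and 27.8 CPM in ICI 1 to 4, against 15.3 CPM in isotype. Every ICI library was above isotype (log2 3.82, SE 1.61, edgeR adjusted p = 0.817). Cxcr6, the receptor of Cxcl16, had 557, 1666, 1770 and 56.4 CPM, against 97.8 CPM in isotype, with ICI 4 below. Ccr2 had 142, 341, 337 and 29.6 CPM, against 71.6 CPM in isotype. Xcr1, the Xcl1 receptor, was found in cluster 16 of all libraries (783, 378, 582 and 230 CPM in ICI 1 to 4, against 99.7 CPM in isotype) and lay at no more than 5.37 CPM in clusters 1, 7 and 8.

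Of 17 regulators of chemokine genes, 0 were called and 5 lay above and 5 below isotype in every ICI library over all cells, where 27.3% of all tested genes lay above and 19.1% below. Ifng, which encodes interferon-gamma, had 26.6, 110, 109 and 16.1 CPM in ICI 1 to 4, against 12.9 CPM in isotype. Within clusters its log2 ratio of ICI over isotype was -0.70 in effector T-like cluster 1 and 0.42 in natural killer-like cluster 8. Nfkbia, an NF-kappaB inhibitor that NF-kappaB itself induces, was lower over all cells, with 260, 383, 351 and 517 CPM, against 830 CPM in isotype. Zfp36, which destabilises cytokine transcripts, had 164, 563, 496 and 278 CPM, against 846 CPM in isotype. Of 5 atypical receptors, 2 were tested and 0 called, and of the 3 surface enzymes, which include Adam10 that sheds Cxcl16, 0 were called.

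Genes most like each ligand over the 17 clusters were named by Pearson's correlation of log2(CPM + 10), averaged over libraries, as a description across clusters that share cells and depth. For Cxcl2 they were Ptgs2 (r = 0.96), Cxcl1 (0.93) and Dab2 (0.93), and for Ccl2 they were Abca9 (0.98), Cebpa (0.98) and Cd300ld (0.98). Ccl3 lay nearest to Fcgr3 (0.97) and Ccl4 to Fcer1g (0.89). Cxcl16 lay nearest to Tgfbi (0.99), Cxcl9 to Sh3pxd2b (0.99) and Cxcl10 to Lrrc25 (0.89). Of the lymphoid ligands, Ccl5 lay nearest to Hopx (0.92) and Xcl1 to Cd160 (0.94). The gene most like Ccl6 was Zmynd15 (0.99), which overlaps Cxcl16 on the opposite strand. Overlapping genes on the opposite strand were also annotated for Ccl2, Ccl6, Xcl1 and Cxcl10, and how reads on these stretches were assigned is not given in the sources used here.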

How the data were processed

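Single-cell libraries were read from the 5′ end of transcripts. The authors deposited 1 integrated table of UMI counts per gene and cell, made with Cell Ranger and Seurat on mm10 per the submitters' processing notes, and a cell table whose library and cluster labels were used as deposited. Parameters and doublet treatment are not given in the sources used here, and no doublet caller was run. The 10 ligands and all lists were chosen with earlier results of these data known. Counts were summed per library and per library and cluster (at least 20 cells) and fitted with edgeR 4.0.16 in R 4.3.3 (TMM, filterByExpr with a minimum count of 10, quasi-likelihood test, Benjamini-Hochberg threshold 0.05), after a test on simulated data. DESeq2 1.42.0 was an alternative. With isotype as 1 library, the filter kept a gene that reached the minimum in any 1 library, isotype included. Each SE was taken from the fold change and its F value. Depth was 3858251 to 32296759 UMIs per library, so 3 UMIs equal 0.0929 to 0.778 CPM. Shares carry exact (Clopper-Pearson) 95% intervals, and cells under 1000 UMIs were left out of thinned shares. Named genes were all 10 ligands, the 3 genes most alike (of 6418 reaching 50 CPM in a cluster) and up to 4 genes per list by level. Ccl7, Xcr1 and Ifng were added after their values were seen, and some genes are not reported here.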

Additional observations from a re-analysis of the deposited data

Results flagged for a closer look

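Among 30 groups of 4 ICI libraries examined, 3 held a library far from the other 3, and each time it was ICI 4. The rule's rate of 1 in 20 holds for independent, normally distributed values. ICI 2 and ICI 3 share barcodes, so that rate does not apply here. In cluster 7, Ccl2 was 1159 CPM in ICI 4, with 28.4 to 39.6 CPM in ICI 1 to 3 and 1095 CPM in isotype. Cxcl10 was 47.7 CPM in cluster 1 of ICI 4, with at most 4.02 CPM in the other ICI libraries and 5.37 CPM in isotype. In cluster 8 it was 92.1 CPM in ICI 4, with at most 8.74 CPM in the other ICI libraries and 2.73 CPM in isotype.

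Some ligands moved in opposite directions in different clusters in every fitted ICI library. Ccl5 was above isotype in regulatory T-like cluster 4 and below it in gamma-delta or type 17 T-like cluster 6, log2 ratios that lay 5.75 apart, and below it in type 2 innate lymphoid-like cluster 10, 7.17 apart from cluster 4. The isotype values rest on few cells: 2 UMIs in 1 cell in cluster 4, 55.9% of 247 UMIs in 1 cell in cluster 6 and 90.2% of 133 UMIs in 1 cell in cluster 10. Fibroblast markers in cluster 6 were at 0 in ICI 1 to 3 and 3697 CPM in ICI 4, against 6218 CPM in isotype, and thyroid epithelial markers in cluster 4 at 38.1 to 91.7 CPM in ICI libraries, against 1037 CPM in isotype. Xcl1 was above isotype in cluster 4 and below it in cluster 7, 11.84 apart, a value set by 0 isotype UMIs in cluster 4. These differences were not tested.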

How the results depend on the processing

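No paired analysis was possible because isotype is 1 library and library numbers follow accession order. Over all cells 0 ligands were called; DESeq2 gave 1, and leaving out an ICI library gave 0 to 1. Within clusters 1 was called; no filter gave 8, DESeq2 2, ICI 1 to 3 summed 2, ICI 2 and 3 summed 0, removing shared barcodes 0, and leaving out an ICI library 2 to 15. Between clusters 0 were called, while no filter gave 1 and leaving out an ICI library 0 to 1. The 2 DESeq2 calls within clusters were in cluster 5, where DESeq2 called 8 of 9494 genes. Except without ICI 4, the shares of all genes called under the other settings are not given here. Those counts thus have no general rate beside them. Of the single values, 346 kept direction and call, 22 changed sign, 10 gained a call and 3 lost one. Over all cells, with T and myeloid dual cells removed, Ccl3 was 0.048, Ccl4 0.022 and Ccl6 0.86 (log2). With ICI 4 alone, Ccl5 was -0.66, Xcl1 -0.32, Cxcl9 -0.026 and Cxcl16 -1.75. Cxcl10 was -0.022 with ICI 2 and 3 summed, -1.17 without cluster 7, -0.046 at isotype cluster shares, and -0.50 to 0.51 leaving out a library; Cxcl16 was -1.40 without cluster 7. In cluster 7, ICI 4 alone gave 0.13 for Ccl2 and 0.049 for Cxcl2, dual-cell removal gave 0.37 for Ccl6 and -2.13 for Cxcl9, and leaving out a library gave -0.53 to 0.32 for Ccl4. In cluster 8, Xcl1 was -0.19 with ICI 4 alone, -0.94 without dual cells and -0.046 to 0.54 leaving out a library. Dual-cell removal took 19.0%, 64.2%, 69.1% and 68.3% of cluster 8 in ICI 1 to 4, and 69.7% in isotype. Its myeloid genes include Fcer1g and Tyrobp, and whether the removed cells were mixtures was not tested. In cluster 1, Ccl5 was -0.46 to 0.081 leaving out a library. Leaving out cluster 7 and summing ICI 2 with ICI 3 (cluster 1 split included) were chosen after seeing the data. The cause was not tested. Single cells, 1 isotype library and shallow ICI 1 to 3 limit all comparisons.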
